A study of Mus musculus with 117 samples.

Results

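The mitochondrial respiratory chain genes described here are the nuclear genes of complexes I to V whose symbols begin with Nduf, Uqcr, Atp5, Cox4 to Cox8 or Sdha to Sdhd. The rule gave 97 protein-coding genes among the 20661 on the mouse autosomes. Another 3 matching genes, Ndufa1, Ndufb11 and Cox7b, lie on the X chromosome and were left out, as were 19 matches annotated as pseudogenes. Each gene was taken as its RefSeq span in GRCm38.p6 with 1 kb added on each side, called its padded span below. The 97 padded spans hold 7490 bins of 200 bp and share none with each other, but 57 of them meet the span of another protein-coding gene.

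The study mapped H3K4me1, H3K4me3, H3K27ac and H3K27me3 by chromatin immunoprecipitation and sequencing (ChIP-seq) in hepatocytes, the main parenchymal cells of the liver. The groups were 9 inbred mouse strains: CAST/EiJ, PWK/PhJ and WSB/EiJ, which derive from wild mice, and NZO/HlLtJ, NOD/ShiLtJ, DBA/2J, C57BL/6J, A/J and 129S1/SvImJ. The mice were females aged 12 weeks in every group, with no treatment named in the labels. Each strain had 13 libraries, 4 marks in 3 mice and 1 input, 117 in all. The authors' deposited segmentation of a strain combines them: every 200-bp bin carries 1 of 14 numbered chromatin states. A strain is therefore 1 value, every SD below is between the 9 strains, and the spread between mice of a strain is unknown. No source used here says which marks make up a state, so the states are called by number only.

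Complexes I to IV pass electrons from NADH and succinate to oxygen, and this transfer drives the proton gradient across the inner mitochondrial membrane, though complex II pumps no protons. Complex V, the ATP synthase, uses that gradient to make ATP. Most subunits are needed in every cell that respires, and hepatocytes carry many mitochondria. Several small subunits of complex IV, cytochrome c oxidase, exist as paired isoforms, 1 made in most tissues including liver and 1 made mainly in heart and skeletal muscle, lung or testis. These pairs allow the chromatin of a gene that the liver is known to use to be set beside that of a close relative it is known to use little.

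Lists of marker genes were described first. State 3 is among the states that earlier work on these files found at ends of hepatocyte-expressed genes. The lists are therefore no independent check of the cell type label. State 3 occurred in all 9 strains at 9 of 10 hepatocyte markers, and Cyp2e1 had it in 7 strains. Over all autosomal protein-coding genes it occurred in all 9 strains at 45.9%. It did so at 0 of 5 endothelial, 0 of 4 Kupffer cell, 0 of 5 bile duct, 0 of 3 lymphocyte, 0 of 5 striated muscle and 0 of 5 testis germ cell markers, and at 1 of 5 stellate cell markers, Reln. Markers of other cell types were not free of state 3 in single strains. It was present at Stab2 and Clec4g in 6 strains each, Pecam1 in 5 and Cdh5 in 1, all endothelial markers, and at the bile duct markers Sox9 in 6 and Epcam in 1. Adgre1 of the Kupffer list and Ptprc of the lymphocyte list had it in 1 strain each, and no muscle or germ cell marker had it in any. The part of other cell types in the results was not tested. Segmentations carry no depth, so no interval for counting error can be given.

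The promoters of 9 of the genes are shown because they carry the contrast that the results turn on: widely expressed subunits against restricted isoforms, and a gene against its short copy. Each run is the 250 bases before the RefSeq start site in GRCm38.p6, 5′ to 3′ on the strand of the gene, with every CpG dinucleotide in capitals. Cox6a1, Cox8a, Cox7a2, Cox6b1 and Ndufb4 are the widely expressed genes, and Cox8b, Cox7a1, Cox6b2 and Ndufb4b are their relatives. The window used for counts adds the 50 bases after the start.
Cox6a1, chr5:115348959-115349208, minus strand: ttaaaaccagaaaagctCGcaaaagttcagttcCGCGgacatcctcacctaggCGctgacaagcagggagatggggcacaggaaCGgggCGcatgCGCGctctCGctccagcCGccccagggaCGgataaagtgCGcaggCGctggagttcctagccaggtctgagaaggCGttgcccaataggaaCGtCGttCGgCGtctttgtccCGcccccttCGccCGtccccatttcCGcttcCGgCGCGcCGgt
Cox8a, chr19:7217617-7217866, minus strand: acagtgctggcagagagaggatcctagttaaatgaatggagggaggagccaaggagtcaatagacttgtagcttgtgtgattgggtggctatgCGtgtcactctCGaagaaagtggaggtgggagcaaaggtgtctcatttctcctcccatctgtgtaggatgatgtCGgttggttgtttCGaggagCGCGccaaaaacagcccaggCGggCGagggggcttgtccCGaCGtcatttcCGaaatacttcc
Cox8b, chr7:140900447-140900696, minus strand: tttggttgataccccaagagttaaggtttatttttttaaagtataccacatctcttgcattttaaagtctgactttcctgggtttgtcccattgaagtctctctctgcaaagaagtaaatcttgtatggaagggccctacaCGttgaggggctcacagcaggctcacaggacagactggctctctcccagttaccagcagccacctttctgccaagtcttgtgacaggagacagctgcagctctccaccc
Cox7a2, chr9:79759854-79760103, minus strand: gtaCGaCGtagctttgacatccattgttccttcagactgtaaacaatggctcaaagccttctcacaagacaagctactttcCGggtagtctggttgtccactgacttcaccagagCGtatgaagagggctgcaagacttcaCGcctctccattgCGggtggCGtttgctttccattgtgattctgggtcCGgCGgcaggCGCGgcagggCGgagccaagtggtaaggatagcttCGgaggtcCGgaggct
Cox7a1, chr7:30183921-30184170, plus strand: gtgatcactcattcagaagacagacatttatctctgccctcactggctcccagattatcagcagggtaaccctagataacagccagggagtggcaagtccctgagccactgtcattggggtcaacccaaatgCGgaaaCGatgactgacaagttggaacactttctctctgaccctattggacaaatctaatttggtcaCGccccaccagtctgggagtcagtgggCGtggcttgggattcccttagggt
Cox6b1, chr7:30626115-30626364, minus strand: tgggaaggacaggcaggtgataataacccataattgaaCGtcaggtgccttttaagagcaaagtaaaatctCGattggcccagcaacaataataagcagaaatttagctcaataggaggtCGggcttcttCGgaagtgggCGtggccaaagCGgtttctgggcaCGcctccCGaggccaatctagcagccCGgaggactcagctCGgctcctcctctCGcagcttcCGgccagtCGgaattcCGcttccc
Cox6b2, chr7:4753095-4753344, minus strand: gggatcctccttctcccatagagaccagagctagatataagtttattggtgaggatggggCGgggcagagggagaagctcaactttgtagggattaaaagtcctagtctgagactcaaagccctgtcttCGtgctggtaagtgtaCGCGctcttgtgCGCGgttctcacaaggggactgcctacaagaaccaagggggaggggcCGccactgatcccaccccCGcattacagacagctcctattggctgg
Ndufb4, chr16:37654369-37654618, minus strand: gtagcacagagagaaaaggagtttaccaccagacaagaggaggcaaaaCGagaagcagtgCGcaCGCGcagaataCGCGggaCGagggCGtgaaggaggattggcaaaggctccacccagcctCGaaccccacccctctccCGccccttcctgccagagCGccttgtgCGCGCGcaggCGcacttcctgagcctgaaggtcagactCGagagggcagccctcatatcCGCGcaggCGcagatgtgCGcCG
Ndufb4b, chr19:25032858-25033107, plus strand: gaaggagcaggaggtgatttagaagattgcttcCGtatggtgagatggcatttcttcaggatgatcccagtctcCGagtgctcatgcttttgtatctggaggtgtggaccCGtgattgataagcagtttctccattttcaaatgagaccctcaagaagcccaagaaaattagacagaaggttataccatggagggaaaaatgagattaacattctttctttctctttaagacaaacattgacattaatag
Among these 9 picked genes the difference can be read from the capitals. In the 300-base windows Cox6a1 had 32 CpG, Cox8a 19, Cox7a2 20, Cox6b1 17 and Ndufb4 23. Cox8b had 2, Cox7a1 7, Cox6b2 10 and Ndufb4b 5. The ratio of observed CpG to that given by the window's own C and G content was 0.842 for Cox8a and 0.115 for Cox8b, and 0.789 for Ndufb4 against 0.399 for Ndufb4b. Outside these 9 genes the 2 classes overlapped. The widely expressed Ndufc2 had 8 CpG and a ratio of 0.482, with state 3 at its start in all 9 strains. The restricted Cox7b2 had 10 CpG and a ratio of 0.564. The table of start sites holds 79 of the 97 genes. It does not list Cox4i1, Cox4i2, Cox6a2, Cox8c or Ndufa4l2.

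Nearly every respiratory chain gene carried state 3 in every strain. A bin of state 3 was present in the padded span in all 9 strains at 87 of the 97 genes, against 45.9% of all autosomal protein-coding genes. The same 87 genes had at least 1 bin that was in state 3 in all 9 strains, against 44.1% of all genes. The 10 others were the 8 isoforms listed as restricted to other tissues or conditions, Cox4i2, Cox6a2, Cox6b2, Cox7a1, Cox7b2, Cox8b, Cox8c and Ndufa4l2, and the 2 short gene copies Ndufb4b and Ndufb4c. These 10 were set apart from general knowledge of the genes, with earlier results on these files in view. The other 87 are called the widely expressed genes below.

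Among the widely expressed genes the states followed a common order along the gene. Of these, 69 had exactly 1 start site in the table. The bin that holds the start was in state 3 at 95% ± 2.72 of them (mean and SD over 9 strains), against 39.7% of the 13796 autosomal genes with 1 start. State 3 was still at 92.8% ± 2.17 in the bin 200 bp further into the gene and 77.6% ± 6.07 at 400 bp. State 1 flanked it on both sides, with 71.7% ± 3.48 at 600 bp before the start and 90.2% ± 3.30 at 800 bp after it. Over all genes with 1 start these were 32.7% and 32.5%. State 8 took over downstream and was highest at 1800 bp, where it held 56.4% ± 10.5 of the genes against 16.7% of all genes. State 9 came next on both sides, reaching 39.3% ± 15.3 at 2400 bp before the start and 29.3% at 3600 bp after it. Over all genes it held 14.9% and 12.9% there. The order of states 3, 1, 8 and 9 was the same over all genes, at lower shares. The SD between strains was a few percentage points in states 3 and 1 near the start and wider for states 8 and 9 beyond.

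**Figure D1:**
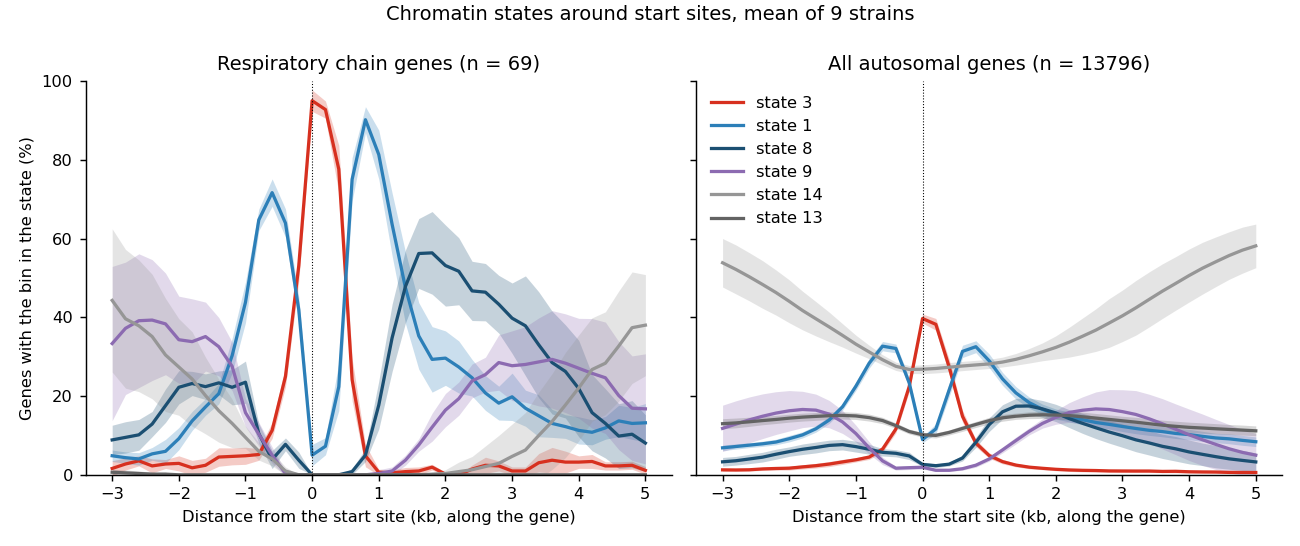
Share of genes (vertical axis, percent) whose bin is in states 1, 3, 8, 9, 13 or 14 at each distance from the start site (horizontal axis, kb along the gene), for 69 widely expressed respiratory chain genes (left) and 13796 autosomal genes (right). Lines are means and bands SDs over 9 strains; state 3 peaks at 95% at the start of the respiratory chain genes and at 39.7% in all genes.

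The stretch of state 3 common to all strains was short. Its length and place were computed for the 87 widely expressed genes only. They were not computed over all genes, where state 3 was also most frequent at the start. Its longest run had a median length of 600 bp over the 87 genes, from 200 bp to 1600 bp in Atp5j, which encodes coupling factor 6 of the ATP synthase. Of the 74 widely expressed genes with a listed start site, 66 had the start inside this run, 72 had it within 400 bp and 73 within 1000 bp. The exception was Ndufb6, a complex I accessory subunit, whose run of 600 bp lay 9421 bp from the listed start. Topors and Smim27 meet its padded span. The bin of its own start was in state 3 in all 9 strains, as were 6 bins of the span in total. Where runs tied in length, only the first along the chromosome was taken. An equally long run at the start of Ndufb6 would not have been counted. The number of state 3 bins was highest on average at Atp5j, with 9 ± 0.5 bins and a range of 8 to 10. Uqcrh, the hinge protein of complex III, had 7.33 ± 1.32, from 5 to 9. The number of bins at Atp5j thus differed by at most 2 between strains. Gabpa, which also had 9 state 3 bins on average, meets the padded span of Atp5j, and Lrrc41 meets that of Uqcrh.

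Promoter composition of the widely expressed genes was described over the 79 start windows of 74 genes, beside the 20084 windows of all autosomal genes in the table. The median window held 20 CpG against 14 in all windows, and the median observed-to-expected ratio was 0.842 against 0.586. Windows of all genes with state 3 in all 9 strains had medians of 22 CpG and 0.787, and those of genes with state 3 in no strain had 4 CpG and 0.241. Nuclear respiratory factor 1 and GABP are the classical activators of these genes, and letters of their motifs were searched on both strands, where matches may overlap. GCGCNTGCG, 9 letters of the nuclear respiratory factor 1 motif, occurred in 36.7% of the respiratory chain windows (29 of 79), in 8.79% of all windows and in 15.1% of those with state 3 in all strains. CCGGAAG, of the GABP motif, occurred in 27.8% (22 windows) against 11.9% and 20.1%. AAGATGGCG, of the YY1 motif, occurred in 10.1% (8 windows) against 1.83% and 3.36%. GGGCGG, of the SP1 motif, occurred in 46.8% against 47.0% and 63.6%. TATAAA, of the TATA box, in 10.1% against 12.7% and 6.81%. Matches are letters in a window and were not tested as binding sites. Among the 300-base windows of the 9 genes printed above, those of Cox6a1 and Ndufb4 hold the nuclear respiratory factor 1 letters, and those of Cox6a1, Cox8a and Cox6b1 hold those of GABP, which in Cox8a reach past the printed stretch. Cox7a1 and Ndufb4b hold none of the 5.

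How much of a gene lay in states 1, 2 or 3, the states found at ends of hepatocyte-expressed genes in earlier work on these files, differed widely between members. The median was 31.5% of the padded span over the 97 genes and 33.8% over the 87 widely expressed ones, against 5.82% over all autosomal genes. Hepatocyte markers had a median of 87.7%, and 91 cytosolic ribosomal protein genes, another set needed in all cells, had 47.7% with state 3 in all strains at 79 of them. Respiratory chain genes are short, with a median length of 7495 bp against 17491 bp, and the padding and start take a larger part of a short span. In windows of 1 kb to each side of the start sites alone, the median was 92.4% for the 74 widely expressed genes and 41.4% for all 16456 genes with a start.

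By complex, counting widely expressed genes, the median share of states 1 to 3 was 28.1% in complex I (43 genes), 14.1% in complex II (8), 37.5% in complex III (8), 37.8% in complex IV (11) and 39.3% in complex V (17). The genes also differed in length, with medians of 8396, 19706, 4890, 6271 and 7131 bp in that order. The median number of state 3 bins was 4, 4.17, 4.61, 4.44 and 5.33. Accessory subunits, which surround the catalytic core, had a median of 36.8% (58 genes), core subunits 28.5% (16) and assembly factors, which help build the complexes and are not part of them, 15.8% (12). Their median lengths were 7105, 11544.5 and 10324.5 bp, and their median numbers of state 3 bins 4.11, 5.17 and 3. All 3 groups had state 3 in all strains at every gene, and it averaged 10.8%, 8.10% and 7.50% of the span. State 14 averaged 23.2%, 36.7% and 52.8%. The mean composition of a widely expressed gene was 25.5% state 1, 15.1% state 8, 9.83% state 3, 9.16% state 9 and 29.7% state 14. Over all genes these were 9.44%, 3.24%, 2.86%, 4.21% and 57.6%. State 13 made up 0.00743% of the widely expressed genes and 9.97% of all genes. It appeared in at least 1 strain at 6 of the 97 genes, against 44.0% of all genes.

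**Figure D2:**
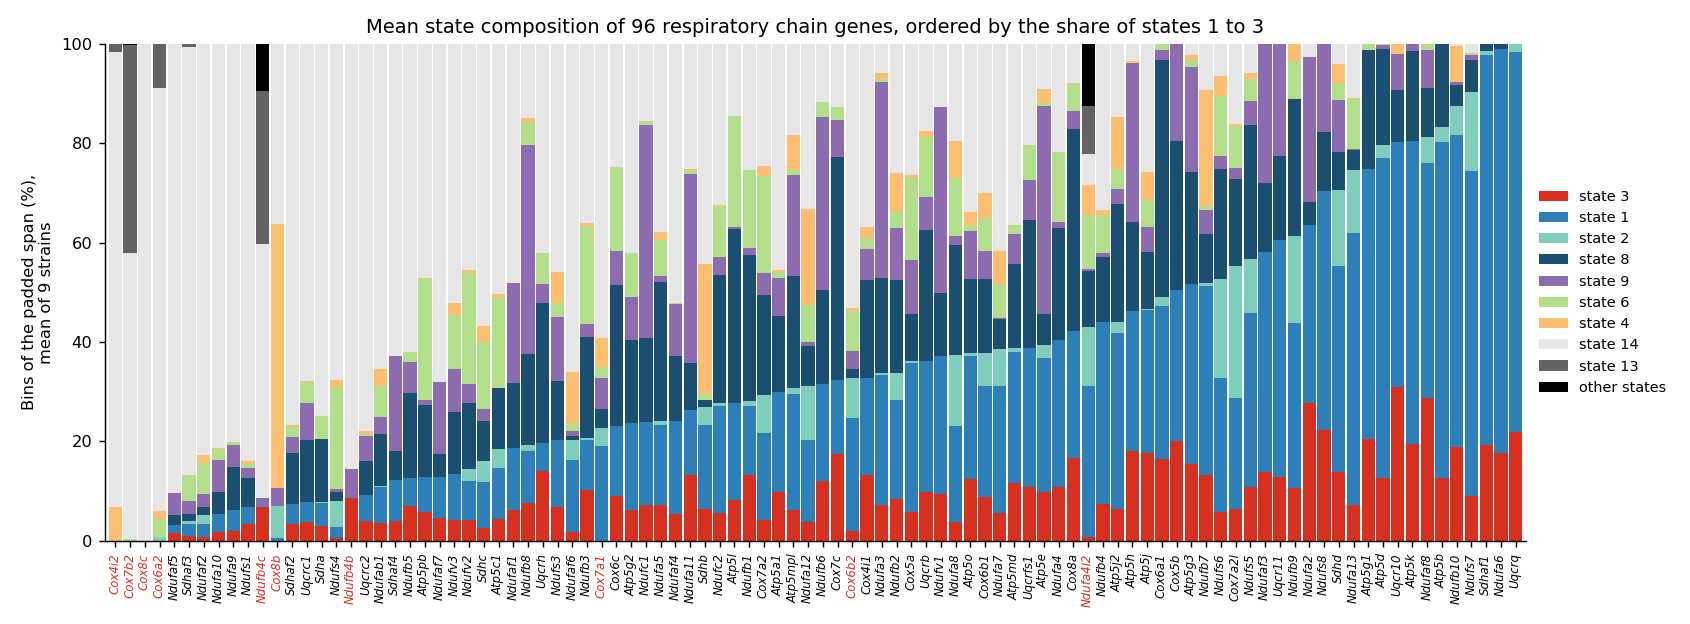
Mean share of the padded span in each state over 9 strains (vertical axis, percent of 200-bp bins) for 96 of the 97 genes, ordered by the share of states 1 to 3. Red names mark the 8 restricted isoforms and 2 gene copies; 6 of these 10 sit among the 12 genes with the lowest share, and Cox7b2 has the most state 13.

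The core subunits spanned almost the whole range. In complex I, Ndufs7 had 90.2% ± 2.45 of its bins in states 1 to 3, with 85.7% in the lowest strain, a median of 89.8% and 93.9% in the highest. Ndufs8, which like Ndufs7 carries iron-sulfur clusters, ranged from 43.3% in NOD/ShiLtJ through a median of 76.7% to 100% in CAST/EiJ. Ndufv1, the NADH-binding subunit, had 37.2% ± 8.84, Ndufs3 20.2% ± 1.83, Ndufv2 14.49% ± 3.24 and Ndufs1, the largest subunit of complex I, 6.80% ± 0.338. The low share at Ndufs1 went with a long span of 178 bins: it still had 5 to 7 bins of state 3 in every strain. In complex II, succinate dehydrogenase, the flavoprotein Sdha had 7.87% ± 1.73, the iron-sulfur subunit Sdhb 27.0% ± 3.16, and the membrane anchors Sdhc and Sdhd 16.0% ± 8.55 and 70.5% ± 9.85. In complex III, Uqcrc1 and Uqcrc2, the core proteins, had 7.75% ± 0.791 and 9.19% ± 0.731, and the Rieske iron-sulfur protein Uqcrfs1 had 38.9% ± 3.93. The alpha and beta subunits of the ATP synthase differed, with 30.02% ± 2.23 at Atp5a1 and 83.3% ± 12.5 at Atp5b. These levels are shares of spans that differ in length and neighbours, and no test between genes was made outside the isoform pairs.

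A few genes were in states 1 to 3 almost throughout. Uqcrq, a small complex III subunit, was at 100% in all 9 strains. Ndufa6, a complex I accessory subunit, was at 100% in 8 strains and 90.6% in A/J. Sdhaf1, an assembly factor of complex II, was at 100% in 7 strains and 93.3% in CAST/EiJ and NZO/HlLtJ. Cox7a2l, a factor that joins complexes III and IV into supercomplexes, had 55.3% ± 15.7, from 28.8% in CAST/EiJ through a median of 56.2% to 82.2% in NZO/HlLtJ. No strain lacked state 3 there: it had 3 to 7 bins.

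The isoform pairs were compared within strains by flipping the sign of each strain's difference in every combination, an exact permutation test (two-sided, n = 9 strains), with p-values adjusted over the 7 pairs by the Benjamini-Hochberg method. The smallest p this test can give is 0.0039, and both pairs with Cox8a share that gene's values. The mean share of states 1 to 3 was lower in the restricted isoform in 6 of the 7 pairs, and the difference passed the test in 4. On state 3 alone it was lower in all 7 pairs, with exact adjusted p from 0.0046 to 0.020. Pairs and states were chosen with earlier results on these files known, so the p-values are no independent support. They describe only how steadily the genes of a pair differed over the strains. Genes whose span meets a padded span are named, since the bins they share count for both: Gm27021 and Emc8 meet that of Cox4i1, Tmem30a that of Cox7a2 and Phf14 that of Ndufa4, and those of the restricted isoforms are given with each.

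**Figure D3:**
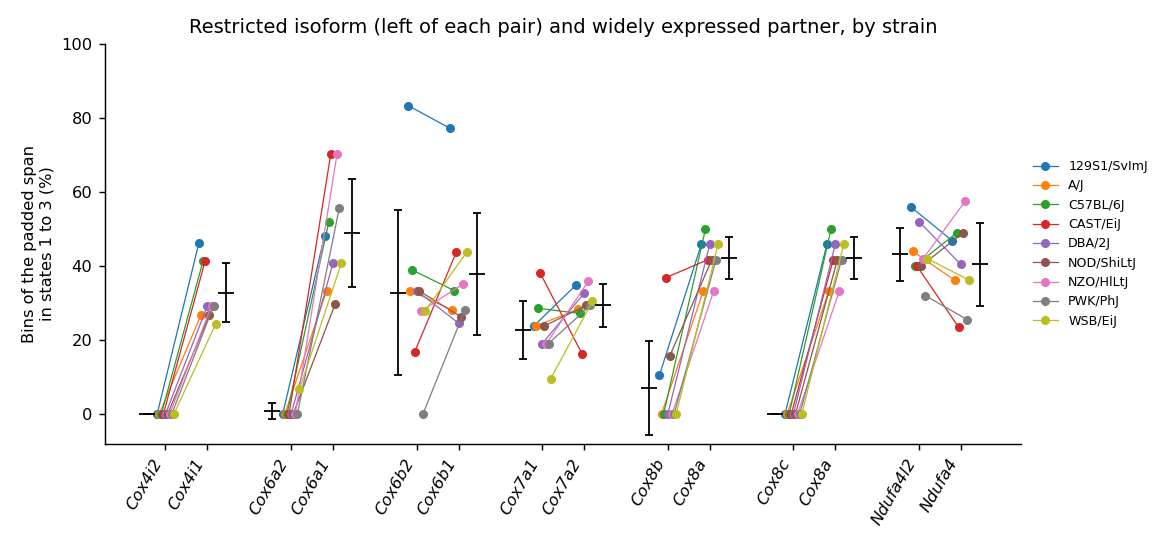
Share of the padded span in states 1 to 3 (vertical axis, percent) for each restricted isoform (left) and its widely expressed partner (right). Each line joins the values of 1 strain, and black bars are the mean and SD of 9 strains. In the pairs of Cox4i2, Cox6a2, Cox8b and Cox8c all 9 lines rise to the right.

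Cox4i2, the isoform of subunit 4 known from lung (chromosome 2, 152753916 to 152765039), had 0 bins of states 1 to 3 in all 9 strains. Its partner Cox4i1 (chromosome 8, 120668225 to 120674209) had 24.4% in the lowest strain, a median of 29.3% and 46.3% in the highest, so the groups did not overlap. The difference was -32.8 percentage points (SD 8.01, n = 9 strains; exact p = 0.0039, adjusted 0.0068). Without bins that lie in another gene's padded span it was -11.1 (adjusted p = 0.014). Cox4i2 was not in 1 state throughout: state 4 covered 25.4% of it in C57BL/6J, 13.4% in A/J and 11.9% in NOD/ShiLtJ, and none in CAST/EiJ, DBA/2J, NZO/HlLtJ and PWK/PhJ. The padded span meets Bcl2l1.

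Cox6a2, the heart and skeletal muscle isoform of subunit 6a (chromosome 7, 128205435 to 128206366), had states 1 to 3 in WSB/EiJ alone, at 6.67%, and 0 in the other 8 strains. Cox6a1 (chromosome 5, 115345652 to 115348958) ranged from 29.6% in NOD/ShiLtJ through a median of 48.1% to 70.4% in CAST/EiJ and NZO/HlLtJ. The difference was -48.2 percentage points (SD 15.3; exact p = 0.0039, adjusted 0.0068). At Cox6a1 the bins outside states 1 to 3 were mostly state 8, with 29.6% to 70.4%, and state 14 was absent in every strain. Itgad meets the padded span of Cox6a2. At Cox6a2 state 14 covered between 40.0% in WSB/EiJ and 100% in A/J, DBA/2J, NOD/ShiLtJ and PWK/PhJ.

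Cox8b, the heart and skeletal muscle isoform of subunit 8 (chromosome 7, 140898942 to 140900446), had no bin of states 1 to 3 in 6 strains. It had 10.5% in 129S1/SvImJ, 15.8% in NOD/ShiLtJ and 36.8% in CAST/EiJ. Cox8a (chromosome 19, 7215158 to 7217616) had 33.3% to 50%, with a median of 41.7%, and exactly 4 state 3 bins in each of the 9 strains. The difference was -35.1 percentage points (exact p = 0.0039, adjusted 0.0068). State 4 covered 31.6% to 68.4% of Cox8b, with a median of 57.9%, and the bin of its start was in state 4 in all 9 strains. With state 4 counted beside states 1 to 3 the difference turned to +18.1 (adjusted p = 0.014). Its padded span meets Psmd13, a widely expressed proteasome gene. Cox8c, the testis isoform (chromosome 12, 102899306 to 102900534), was in state 14 in every bin of every strain, and its difference from Cox8a was -42.1 (exact p = 0.0039, adjusted 0.0068).

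Cox6b2, the testis isoform of subunit 6b (chromosome 7, 4751792 to 4753094), ranged from 0 in PWK/PhJ through a median of 33.3% to 83.3% in 129S1/SvImJ. Cox6b1 (chromosome 7, 30616971 to 30626114) had 24.6% in DBA/2J, a median of 33.3% and 77.2%, again in 129S1/SvImJ. The groups overlapped, and the difference of -5.10 percentage points did not pass the test (4 strains lower, 5 higher; exact adjusted p = 0.39). Its direction depended on the window: it was +27.3 in the unpadded span (adjusted p = 0.044) and -46.5 within 1 kb of the start (adjusted p = 0.0039). Cox6b2 had state 3 in 129S1/SvImJ alone, in 3 bins, where state 1 covered most of the rest. The bin of its start was in state 1 in 5 strains, state 6 in CAST/EiJ and PWK/PhJ, and state 8 in the other 2. At Cox6b1 that bin was in state 3 in all 9. Fam71e2 meets the padded span of Cox6b2.

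Cox7a1, the heart and skeletal muscle isoform of subunit 7a (chromosome 7, 30184171 to 30186030), had 9.52% in WSB/EiJ, a median of 23.8% and 38.1% in CAST/EiJ. Cox7a2 (chromosome 9, 79755241 to 79771422) had 16.3% in CAST/EiJ, a median of 29.3% and 35.9% in NZO/HlLtJ. The difference of -6.60 percentage points did not pass the test (7 strains lower, 2 higher; exact adjusted p = 0.22). Without CAST/EiJ, the strain with the most at Cox7a1 and the least at Cox7a2, it was -10.1 (adjusted p = 0.022). With any other strain left out the difference did not pass the test, with exact adjusted p from 0.22 to 0.43. Over all 9 strains it was -37.4 within 1 kb of the start (adjusted p = 0.0039) and +2.88 in the unpadded span (adjusted p = 0.45). Cox7a1 had no state 3 bin in any strain. Its start lay in state 1 in 6 strains and in state 8 in A/J, PWK/PhJ and WSB/EiJ, whereas the start of Cox7a2 lay in state 3 in all 9. Capns1 meets the padded span of Cox7a1, and without the bins in other genes' padded spans the difference was +0.303 (adjusted p = 0.96).

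Ndufa4l2, a relative of the complex IV subunit Ndufa4 that is known to be induced by low oxygen (chromosome 10, 127509274 to 127517154), had a share of states 1 to 3 whose difference from its partner did not pass the test. It ranged from 32.0% in PWK/PhJ through a median of 42.0% to 56.0% in 129S1/SvImJ, and Ndufa4 (chromosome 6, 11900372 to 11907450) from 23.4% in CAST/EiJ through 40.4% to 57.4% in NZO/HlLtJ. The difference was +2.69 percentage points (exact adjusted p = 0.47). State 3 separated them: Ndufa4 had 5 or 6 bins in every strain, and Ndufa4l2 had 1 bin in DBA/2J, 2 in NOD/ShiLtJ and 0 in the other 7, a difference of -10.2 percentage points (exact adjusted p = 0.0046). Ndufa4l2 also had state 13 in every strain, from 6.00% to 16.0%, a state that was absent from Ndufa4. Stac3 and Shmt2 meet its padded span.

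**Figure D4:**
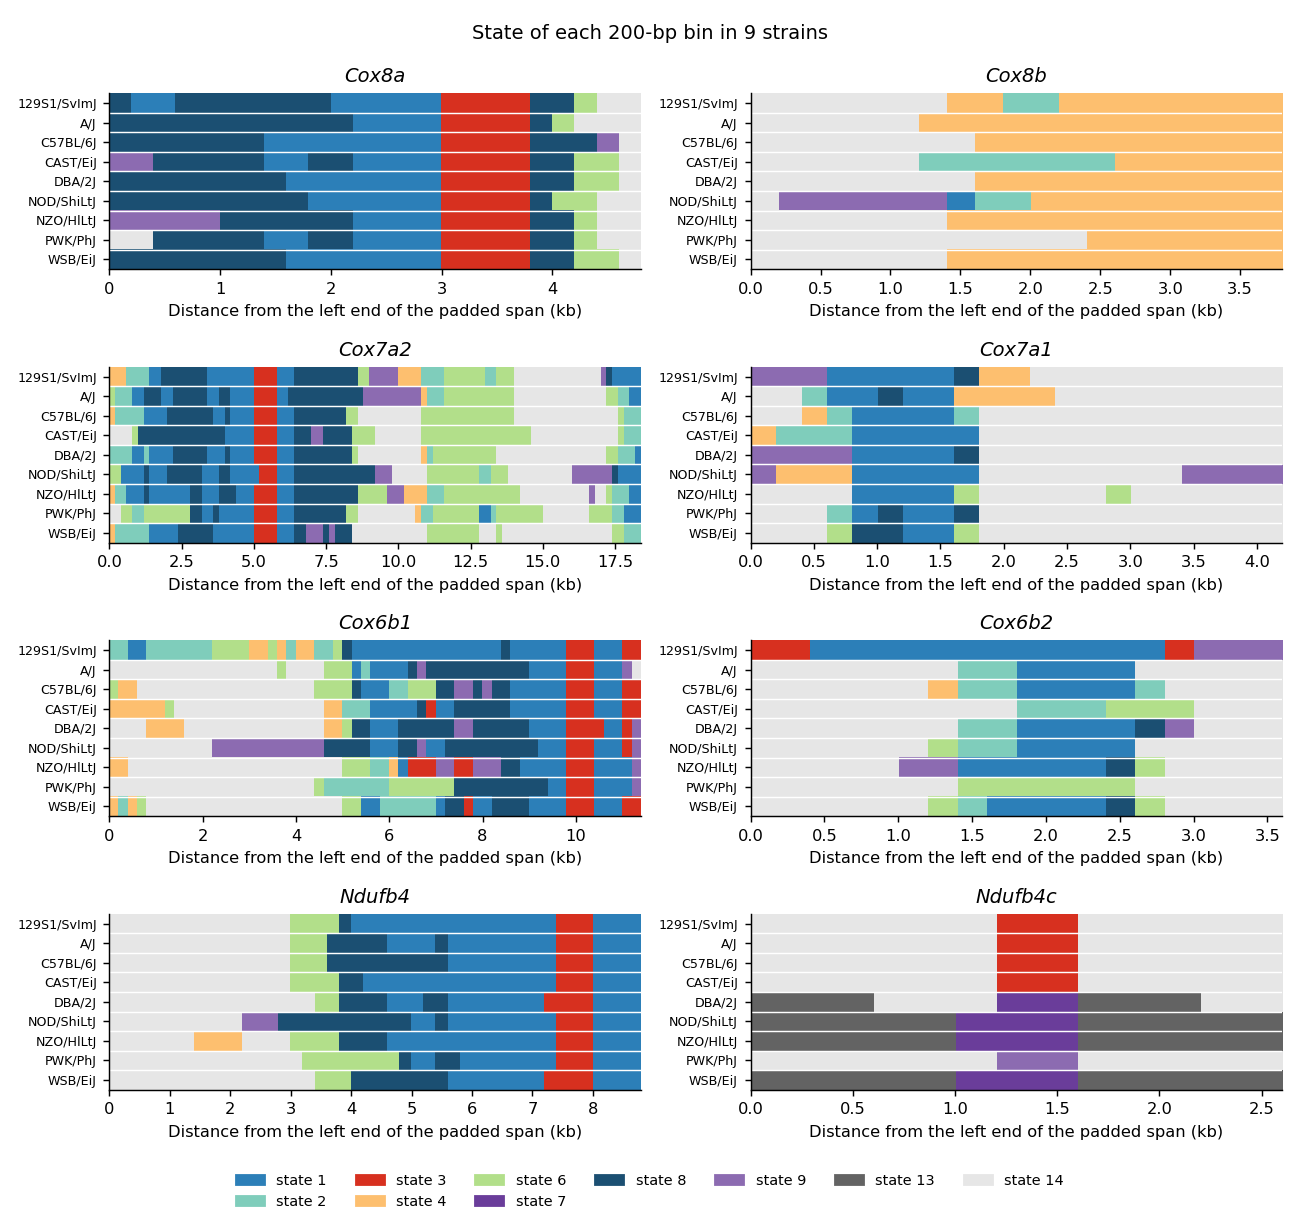
State of each 200-bp bin in each of 9 strains (rows) against distance from the left end of the padded span (horizontal axis, kb, different for each panel), for Cox8a and Cox8b, Cox7a2 and Cox7a1, Cox6b1 and Cox6b2, and Ndufb4 and Ndufb4c. Cox8a shows state 3 at the same place in all strains and Cox8b none; at Ndufb4c state 3 in 4 strains stands where 4 others have state 7.

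No bin of states 1 to 3 in any strain was found at 3 of the 97 genes, against 29.1% of all genes: Cox4i2, Cox8c and Cox7b2. Cox7b2, the testis isoform of subunit 7b (chromosome 5, 71442823 to 71548205), has its usual partner Cox7b on the X chromosome and could not be paired. State 13 covered 30.3% of it in C57BL/6J, a median of 40.1% and 57.6% in NOD/ShiLtJ, and state 14 nearly all of the rest. The bin of its start was in state 14 in all 9 strains.

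State 3 in some strains but not all was found at 4 of the 97 genes, against 13.7% of all genes: Cox6b2, Ndufa4l2, Ndufb4b and Ndufb4c. Ndufb4b and Ndufb4c are short copies of Ndufb4, a complex I accessory subunit, and reads may not be told apart between copies, so their states are uncertain. Ndufb4c (chromosome 15, 73809449 to 73809933) had 2 bins of state 3 in 129S1/SvImJ, A/J, C57BL/6J and CAST/EiJ and none in the other 5 strains. In NOD/ShiLtJ, NZO/HlLtJ and WSB/EiJ state 13 covered 76.9% of its padded span and in DBA/2J 46.2%, with state 7 at the centre. PWK/PhJ had state 14 in 84.6% and neither state 7 nor state 13. Ndufb4b (chromosome 19, 25033108 to 25033578) had 2 bins of state 3 in NZO/HlLtJ, NOD/ShiLtJ, DBA/2J, CAST/EiJ and C57BL/6J. At its start the other strains had state 9, or state 14 in PWK/PhJ. Neither copy had a bin of state 1 in any strain, unlike Ndufb4, where state 1 averaged 36.6% and flanked 3 or 4 bins of state 3 in every strain. Dock8 meets the padded span of Ndufb4b and Mroh5 that of Ndufb4c.

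Differences between strains were summed as divergence, the percentage of a gene's bins in a different state, averaged over the 36 pairs of strains. The median was 25.6% over the 97 genes and 25.8% over the widely expressed ones, against 19.8% over all autosomal genes. Within 1 kb of start sites the order was the other way round, with 12.1% for the widely expressed genes and 18.2% for all genes. In bins outside state 14 in at least 1 strain the medians were 32.4% over the members, 30.9% over the widely expressed genes and 34.7% over all genes. In windows of 1 kb around both gene ends they were 21.1% over the 97 genes, 19.7% for the widely expressed genes and 19.6% for all genes. The median of the widely expressed genes therefore stood above that of all genes over padded spans, close to it at gene ends and below it by the other 2 measures. Core subunits had a median of 28.6%, accessory subunits 26.9% and assembly factors 11.9%.

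The divergence was also split by the 2 states exchanged. Bins that were state 1 in a strain and state 8 in another were 20.5% of all differing pairs at the widely expressed genes and 5.51% at all genes. States 9 and 14 exchanged in 15% against 9.35%, and states 4 and 14 in 8.18% against 13.5%. States 13 and 14, the most frequent exchange over all genes at 27.2%, made up 0.0454% at the widely expressed ones. Atp5b shows the first kind: state 8 covered 2.17% of it in 129S1/SvImJ and PWK/PhJ, a median of 13% and 39.1% in A/J, and states 1 to 3 moved the opposite way, from 60.9% in A/J to 97.8% in 129S1/SvImJ and PWK/PhJ.

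Among the genes with the highest divergence were Ndufb4c (55.1%), Ndufs5 (49.4%), Cox6b1 (48.5%) and Ndufa4l2 (45.6%). Ndufs5, a complex I accessory subunit, had 21.1% of its bins in states 1 to 3 in CAST/EiJ, 28.9% in 129S1/SvImJ, 39.5% in A/J, a median of 63.2% and 89.5% in C57BL/6J. Its state 3 stretch moved little, with 3 to 5 bins, and the strains differed in states 1, 2, 8 and 9 around it. Sdhb was not among the first 5 but had 1 of the widest ranges of state 4, with 0 in A/J and C57BL/6J, a median of 27.0% and 60% in CAST/EiJ; it was singled out after its values were seen. The genes with the lowest divergence were Cox8c (0), Ndufaf5 (2.72%), Ndufa6 (4.51%), Uqcrq (5.56%) and Ndufs1 (6.10%). They were of opposite kinds: Ndufa6 and Uqcrq were almost wholly in states 1 to 3, and Cox8c, Ndufaf5 and Ndufs1 mostly in state 14, at 100%, 90.5% and 84.0%.

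By strain, the number of the 97 genes with state 3 lay between 87 in PWK/PhJ and WSB/EiJ and 89, and the median share of states 1 to 3 over the widely expressed genes lay between 28.6% in A/J and 39.1% in 129S1/SvImJ. PWK/PhJ diverged most from the other strains at the widely expressed genes, with a mean of 30.7%, then NOD/ShiLtJ with 29.4%, and the other 7 had 23.8% to 26.7%. NOD/ShiLtJ had the most state 8, 22.2% of the mean widely expressed gene against 11.6% to 20.1% elsewhere, and the most state 9, 17.4% against 3.83% to 10.9%. It was the strain with the most state 9, ties included, at 52 of the 79 genes with that state in any strain, and with the most state 8 at 42 of 86. PWK/PhJ had the least of both, and the most state 6, 10.1% against 2.26% to 6.36%, and state 14, 37.4% against 22.6% to 32.1%. The same 2 strains stood at the ends over all autosomal genes, where state 9 was 7.59% in NOD/ShiLtJ and 1.67% in PWK/PhJ and state 8 was 4.77% and 2.31%. They also diverged most over all genes, with means of 24.6% in PWK/PhJ and 22.2% in NOD/ShiLtJ, against 19.3% to 22.0% elsewhere. The counts of genes at which NOD/ShiLtJ had the most state 8 or 9 were not made over all genes. State 6 over all genes was highest in A/J at 4.00%, with 3.86% in PWK/PhJ. State 14 over all genes was also highest in PWK/PhJ, at 63.6%, against 55.3% in NOD/ShiLtJ, the lowest, to 58.4% elsewhere. With 1 segmentation per strain, a difference between strains cannot be told apart from a difference between their libraries, and no test was made.

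**Figure D5:**
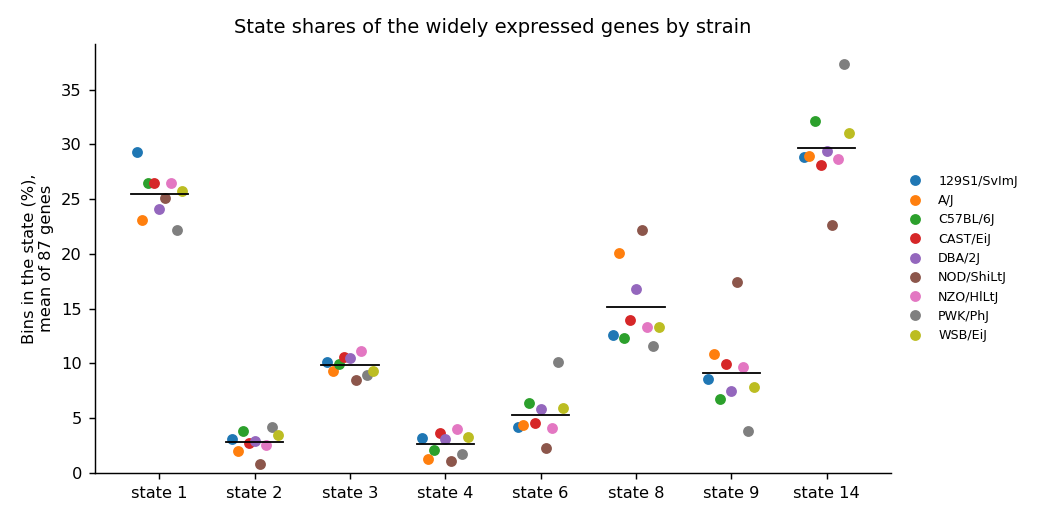
Mean share of the padded span (vertical axis, percent of bins) in 8 of the 14 states over the 87 widely expressed genes, with 1 point per strain and a line at the mean of 9 strains. NOD/ShiLtJ lies highest in states 8 and 9, and PWK/PhJ highest in states 6 and 14.

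Other genes of the pathway, listed apart from the symbol rule, gave like counts. State 3 was present in all 9 strains at 40 of 41 genes for electron carriers and assembly factors, with a median of 23.3% in states 1 to 3. The exception was Cyct, the testis form of cytochrome c, with 0 bins of states 1 to 3 in every strain, whereas Cycs, the cytochrome c of other tissues, had 35.5%. All 10 regulators of these genes that were found, such as Ppargc1a, Nrf1, Gabpa, Esrra and Tfam, had state 3 in all strains. Among these Esrra, an orphan nuclear receptor, had 76.9% ± 10.9 of its bins in states 1 to 3 and Nrf1 had 2.23% ± 0.161 in a span of 539 bins. Gabpa meets the padded span of Atp5j, and the bins they share count for both.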

How the data were processed

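Chromatin states of hepatocytes from females of 9 strains were analysed. Per the file headers, each of the authors' deposited segmentations belongs to 1 strain; it lists intervals with a state number from 1 to 14, a category and not a count or signal, in steps of 200 bp. Per the submitters' processing notes the build was mm10, and FastQC 0.11.5 and MACS 1.4.2 were used, with no role named. The aligner, the segmentation tool and the depth are not given in the sources used here. The 9 segmentations may have been learned together and the strains share ancestry, so they are not fully independent. A further file joining all strains was identical to the 9 laid end to end and was not used.

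Gene spans and start sites came from RefSeq tables of GRCm38.p6, the same assembly as mm10, and promoter sequences from RefSeq as well. States were written as 200-bp bins of autosomes. A bin belonged to a gene if it touched the span padded by 1 kb. Shares, counts and divergence were computed per strain, and isoform pairs were tested with an exact sign-flip permutation test (512 patterns), adjusted by the Benjamini-Hochberg method over 7 pairs at a threshold of 0.05. The code was tested on simulated data. Versions were pandas 2.3.3, numpy 2.4.6, scipy 1.17.1, matplotlib 3.10.9 and Python 3.11.15.

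The genes named were the isoform pairs and Cox7b2, the catalytic core subunits, the 5 genes with the highest and the 5 with the lowest divergence, those with no bin of states 1 to 3 or with state 3 in only some strains, Cox7a2l and the 3 with the most state 3 bins on average. The values of 1 gene that this rule names are not reported here. The genes, lists and tests were chosen with earlier results of these data known. The motifs of nuclear respiratory factor 1 and YY1 were shortened to 9 letters after the tables were seen. The symbols Prc and Vsig4 were not found in the autosomal table and were left out of their lists. Alternatives were the unpadded span, windows at gene ends or starts, other genes' spans left out, isolated bins merged, other sets of states, bins outside state 14 and each strain left out; leaving out other genes' padded spans was added after seeing the data.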

Additional observations from a re-analysis of the deposited data

Results flagged for a closer look

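For 23 quantities with 1 value per strain, the highest and lowest strain were compared with the other 8 by Dixon's 95% limit for 9 values, and about 1.15 sets would pass by chance. A strain far from the others was found in 1 of them. The mean share of state 11 over the widely expressed genes was 0.00267% in NOD/ShiLtJ and 0 in the other 8 strains. Among these genes it came from Sdhaf3 alone, where state 11 averaged 0.0258% of 430 bins over the 9 strains. With 0 in 8 strains, any value above 0 in the last passes the limit.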

How the results depend on the processing

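The pairs Cox4i2, Cox6a2 and Cox8c against their partners kept direction and side of the threshold under all 16 alternatives run for each, and Cox8b under 16 of 17, all but states 1 to 4 (+18.1). The Cox6b2 difference was +27.3 in the unpadded span, +4.92 without bins in other genes' spans (adjusted p = 0.45), -18.4 without those in other genes' padded spans (0.038), -19.8 in windows at both gene ends (0.0068), -46.5 at the start (0.0039) and -6.92 for state 3 alone (0.020). The Cox7a1 difference was +2.88 in the unpadded span, +0.303 without other genes' padded spans (0.96), -26.2 at gene ends (0.014), -37.4 at the start (0.0039) and -4.23 for state 3 alone (0.0046); with each strain left out it lay between -10.1 and -4.81. The Ndufa4l2 difference was -1.01 at gene ends (1.0) and -10.2 for state 3 alone (0.0046). In the unpadded span the Cox8b and Cox8c differences were -55.8 and -70.6. The number of genes with state 3 in all strains was 82 to 87 over the alternatives on all 97 genes, 85 of the 95 genes left without bins in other genes' spans, and 74 of 79 at start windows. Genes with no bin of states 1 to 3 numbered 1 of 79 at start windows, and 3 or 4 otherwise. The median divergence was 21.1% at gene ends, 12.1% at starts and 32.4% in bins outside state 14. The start window could be used for 3 pairs only, since the others lack a listed start. The causes of these changes were not tested.

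No paired analysis was possible because each segmentation merges a strain's mice, so replicate numbers carry no separate values; this concerns pairing by mouse, and the isoform differences were taken within strains. Depth is unknown, and what it limits cannot be given.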
